A study of Mus musculus with 4 samples.

Results

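AA+DMSO was compared with PBS+DMSO to describe what L-ascorbic acid (AA, vitamin C) alone does to the transcriptome of female mouse embryonic stem cells (ESCs). These are 2 of the 4 RNA-Seq libraries of the study, chosen by their labels, and there is 1 library per condition. Both libraries come from LF2, a female ESC line of strain 129/J, kept for 24 hr with DMSO, the vehicle of GSK-J4. The treated culture also received AA at 50 µg/ml and the control received PBS, the vehicle of AA. The cells had been grown on feeder cells and, per the labels, were passed 2 times without them before treatment. The other libraries, AA+GSK-J4 and PBS+GSK-J4, come from the same line treated with 10 µM GSK-J4, which enters cells and blocks JmjC-type histone demethylases. They share no library with the DMSO pair and are set beside it as a further comparison of AA with PBS, although in cells under another treatment. The values of both libraries with AA were deposited together, and those of both libraries with PBS were deposited apart from them. A difference between these deposits therefore cannot be told apart from AA in either pair. Of 9779 genes with a usable estimate, 8843 reached 1 FPKM (a fragment count normalised to exon length and to the number of mapped fragments) in at least 1 of the DMSO libraries, and these are the genes tested.

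AA keeps the iron of alpha-ketoglutarate dependent oxygenases in its reduced, active form. This enzyme family includes the TET enzymes, which oxidize methylated cytosine, the JmjC histone demethylases, the prolyl hydroxylases that mature collagen, and the EGLN prolyl hydroxylases. EGLN enzymes mark the alpha subunits of hypoxia inducible factor (HIF) for destruction, and HIF drives genes of glucose uptake, glycolysis, lactate export, mitophagy and collagen modification. ESCs rely strongly on glycolysis, and their glycolytic transcripts are among the most abundant in the cell.

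Genes for glycolysis and other known HIF targets mostly lay lower in AA+DMSO than in PBS+DMSO. *Slc16a3*, which encodes the lactate exporter MCT4, *Bnip3*, which encodes a mitophagy receptor, and *Ldha*, which encodes the lactate dehydrogenase subunit that forms lactate from pyruvate, were 2.85, 2.21 and 2.004 times lower. Of the 47 tested members of the glycolysis and HIF target lists, 41 lay below the median gene. Of these, 40 also lay below it in the comparison of AA with PBS under GSK-J4, where *Slc16a3*, *Bnip3* and *Ldha* differed by 4.20, 2.88 and 2.64 times. Levels of the core pluripotency genes, in contrast, differed little.

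All differences are log2((FPKM in AA + 1)/(FPKM in PBS + 1)), with the median over the genes tested set to 0, and a difference of 1 is 2-fold. The pseudocount of 1 makes the differences of weakly expressed genes smaller than their plain ratios. Before centring, the median was -0.05 in the DMSO pair and -0.02 in the GSK-J4 pair. With no replicates, no p-value can be given, and a gene was called when it differed at least 2-fold. As a yardstick, each gene was also set beside the 300 genes nearest to it in mean level. In all, 53 genes were at least 2-fold higher in AA+DMSO (0.599% of those tested) and 56 were at least 2-fold lower (0.633%). At 1.5-fold, 217 genes were higher (2.45%) and 160 were lower (1.81%). The libraries were alike in extent, with FPKM sums of 360621 in PBS+DMSO and 342327 in AA+DMSO and with 8641 and 8610 genes at 1 FPKM or more. Read counts are not part of the tables, so the depth is unknown.

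The stem cell identity of both libraries was clear from its markers. *Pou5f1*, which encodes Oct4, was at 867 FPKM in PBS+DMSO and 800 in AA+DMSO, *Sox2* was at 223 and 214, and *Nanog* was at 162 and 151. Of 22 markers of feeder fibroblasts, 13 were tested, and none of these was called. Their FPKM summed to 213 in PBS+DMSO and 209 in AA+DMSO, and 7 lay above the median gene and 6 below it. The highest was the fibroblast collagen gene *Col1a1*, at 2.83 and 3.24 FPKM, with a log2 ratio of 0.20. The lowest was *Thy1*, at 2.79 and 1.78 FPKM, with a log2 ratio of -0.40. In bulk RNA, fewer cells of a kind and less RNA per cell cannot be told apart.

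*Slc16a3* lies on chromosome 11 from 120949026 to 120959551. It was at 41.0 FPKM in PBS+DMSO, 13.3 in AA+DMSO, 28.5 in PBS+GSK-J4 and 5.93 in AA+GSK-J4, so each library with AA lay below both libraries without it. The log2 ratio was -1.51 in the DMSO pair and -2.07 in the GSK-J4 pair, and 0 of the 300 genes nearest in level had a lower ratio in either pair. *Bnip3* (chromosome 7, 138890693 to 138909521) was at 46.4 FPKM in PBS+DMSO, 19.7 in AA+DMSO, 44.6 in PBS+GSK-J4 and 14.6 in AA+GSK-J4. Its log2 ratios were -1.14 and -1.53, again with 0 of 300 neighbours lower in either pair. *Ldha* (chromosome 7, 46845700 to 46855629) was far more abundant, at 933 FPKM in PBS+DMSO, 450 in AA+DMSO, 666 in PBS+GSK-J4 and 248 in AA+GSK-J4. Its ratios were -1.003 and -1.40, while the ratios of its 300 neighbours in the DMSO pair had a robust SD of 0.07, and 0 of them were lower. *Ldha* sits at the 2-fold threshold, and its ratio ranged from -1.05 to -0.97 under 10 other settings.

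The windows of 250 bases before the starts of these genes and of *Pgk1* are shown because they hold the letters ACGTG. This is a form of the core to which HIF is known to bind. Sequences are from RefSeq on GRCm38.p6, written on the strand of the gene, with ACGTG on either strand (CACGT when read on the other) in capitals. Positions count from the RefSeq start, with -1 as the last base of the window. The window of *Slc16a3* is chr11:120948817-120949066 (plus strand), and its matches begin at -27 and -14. That of *Bnip3* is chr7:138909507-138909756 (minus strand), where the matches at -108 and -107 overlap in CACGTG. That of *Ldha* is chr7:46845554-46845803 (plus strand), with matches at -145, -144, -48, -47 and -34. That of *Pgk1* is chrX:106186850-106187099 (plus strand), with matches at -150 and -131. A second RefSeq start of *Ldha* has a window without a match. Bases just after this second start were found in an annotated (GENCODE) transcript of *Ldha*. Those after the start of the window shown were not. Part of each window of *Slc16a3*, *Bnip3* and *Ldha* lies inside the locus given for the gene in the tables.
Slc16a3: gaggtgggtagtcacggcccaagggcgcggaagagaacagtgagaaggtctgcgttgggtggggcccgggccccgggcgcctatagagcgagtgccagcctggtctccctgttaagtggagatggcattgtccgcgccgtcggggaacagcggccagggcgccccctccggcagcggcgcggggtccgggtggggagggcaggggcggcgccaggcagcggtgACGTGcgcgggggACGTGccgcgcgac
Bnip3: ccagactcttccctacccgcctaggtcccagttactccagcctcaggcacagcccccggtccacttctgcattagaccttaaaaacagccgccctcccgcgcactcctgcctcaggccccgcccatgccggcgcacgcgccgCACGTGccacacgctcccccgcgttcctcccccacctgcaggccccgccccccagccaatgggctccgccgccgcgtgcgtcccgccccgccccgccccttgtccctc
Ldha: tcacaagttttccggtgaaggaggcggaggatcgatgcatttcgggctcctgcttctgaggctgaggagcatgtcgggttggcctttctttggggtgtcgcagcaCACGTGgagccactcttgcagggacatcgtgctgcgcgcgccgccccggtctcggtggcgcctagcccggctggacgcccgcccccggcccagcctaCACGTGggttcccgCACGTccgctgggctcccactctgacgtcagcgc
Pgk1: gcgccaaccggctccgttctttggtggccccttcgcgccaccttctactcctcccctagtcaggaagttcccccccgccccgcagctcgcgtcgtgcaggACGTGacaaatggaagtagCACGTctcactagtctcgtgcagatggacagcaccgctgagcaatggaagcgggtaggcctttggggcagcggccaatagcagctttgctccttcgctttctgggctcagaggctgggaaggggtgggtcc
Of the 38 tested genes of the glycolysis and HIF lists that have a window, 25 (65.8%) hold ACGTG in at least 1 of their windows. The share was 26.4% of the 6815 tested genes with a window (1800 genes), and 16.6% of all 32851 windows in the table hold it. The motif is contained in CACGTG, the E-box bound by MYC and USF factors, which was found for 21.1% of the genes on the lists and 10.6% of the genes tested. The lists name glycolysis genes and known HIF targets, and they were chosen with earlier results of these data known. The counts themselves use the expression values only through the filter at 1 FPKM. The share describes the lists, and a high share among known HIF targets is no support for an effect of AA. Among the members at least 1.5-fold lower in AA+DMSO, 8 of the 10 with a window hold ACGTG. It was not found for *Tpi1* and *Pfkl*, whose ratios were -0.90 and -0.88. The search covered ACGTG and no other form of the core, so such forms may be present. *Hk2* holds ACGTG at -226 and -52, and its ratio was 0.01. Binding of HIF was not measured.

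In glycolysis, 19 of 24 listed names were tested, of which 16 lay below the median gene and 3 above it. The median ratio of the list was -0.35, against 0.00 for all genes tested. Of the 19 genes, 2 were called lower and 0 higher at 2-fold, and 7 were lower and 0 higher at 1.5-fold, where 0.633% and 1.81% of all genes tested were lower. In the GSK-J4 pair the median was -0.55, and the same 16 genes lay below the median gene. The FPKM of the listed genes made up 1.81% of the sum over all genes in PBS+DMSO and 1.29% in AA+DMSO.

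The lower genes covered most steps of the pathway. *Slc2a1*, which encodes the glucose transporter GLUT1, was at 182 FPKM in PBS+DMSO, 121 in AA+DMSO, 181 in PBS+GSK-J4 and 119 in AA+GSK-J4, with ratios of -0.53 and -0.58. Its FPKM with and without GSK-J4 was nearly the same within each AA condition. FPKM itself was not centred. Over all genes it summed to 360621 in PBS+DMSO, 342327 in AA+DMSO, 275575 in PBS+GSK-J4 and 271205 in AA+GSK-J4. Equal FPKM with and without GSK-J4 therefore need not mean an equal share of the transcripts. *Pfkl*, which encodes the liver form of phosphofructokinase, was at 87.8, 45.7, 76.8 and 34.9 FPKM in the same order of libraries. *Tpi1*, which encodes triosephosphate isomerase, was at 203, 105, 121 and 55.1. The ratios in the DMSO pair were -0.88 and -0.90, and both genes had -1.10 in the GSK-J4 pair. *Pgk1*, which encodes phosphoglycerate kinase and lies on the X chromosome from 106187114 to 106203774, was at 1218, 692, 910 and 408 FPKM, with ratios of -0.77 and -1.14. *Aldoa*, which encodes aldolase A, was at 595, 354, 414 and 246 FPKM, with ratios of -0.70 and -0.73. Among the 300 nearest genes, 2 were lower than *Slc2a1* in the DMSO pair, 2 were lower than *Aldoa*, 1 was lower than *Pgk1*, and 0 were lower than *Tpi1* or *Pfkl*.

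Further members had smaller differences in the same direction. *Pfkfb3*, which encodes an activator of phosphofructokinase, had a ratio of -0.62. The enolase gene *Eno1* had -0.39, *Pkm*, which encodes muscle pyruvate kinase, -0.35, *Pgam1* (phosphoglycerate mutase) -0.34 and *Gapdh* -0.23. *Pdk1*, whose product restrains the entry of pyruvate into mitochondria, had -0.32. *Gapdh* is often used for normalization, and it was at 1422 FPKM in PBS+DMSO and 1170 in AA+DMSO, with 8 of its 300 neighbours lower. The ratios of *Slc2a3*, which encodes GLUT3, and *Pfkp*, which encodes platelet phosphofructokinase, were both -0.17, and that of *Slc16a1*, which encodes the other lactate carrier MCT1, was -0.09. Not all members followed. The hexokinase genes *Hk2* and *Hk1*, for the entry step of the pathway, had ratios of 0.01 and 0.24, and *Pfkm*, for the muscle form of phosphofructokinase, had 0.28. In the GSK-J4 pair these genes stood at 0.01, 0.16 and 0.12.

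**Figure D1:**
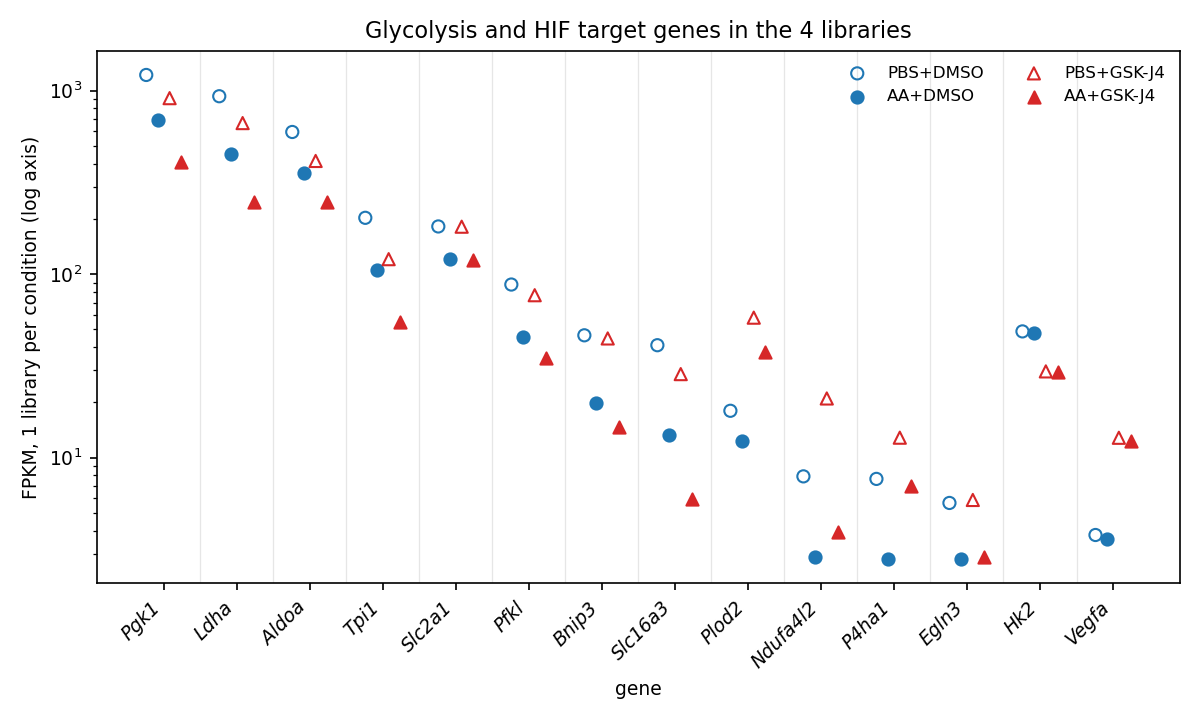
FPKM (log axis) of 14 genes of the glycolysis and HIF target lists in the 4 libraries, 1 point per library, with open symbols for PBS, filled symbols for AA, circles for DMSO and triangles for GSK-J4. The filled symbol lies below the open one of the same shape for each gene from *Pgk1* to *Egln3*, while *Hk2* and *Vegfa* differ little with AA.

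Among HIF targets outside glycolysis, 28 of 36 listed names were tested, and 25 of them lay below the median gene. The median ratio was -0.28 in the DMSO pair and -0.20 in the GSK-J4 pair. At 2-fold, 3 members were called lower and 0 higher, and at 1.5-fold 4 were lower and 0 higher, where 0.633% and 1.81% of all genes tested were lower. *Ndufa4l2*, whose product lowers the activity of respiratory complex I in hypoxia, was at 7.90 FPKM in PBS+DMSO, 2.89 in AA+DMSO, 21.0 in PBS+GSK-J4 and 3.93 in AA+GSK-J4. The ratios were -1.15 and -2.14. *P4ha1*, which encodes the catalytic subunit of collagen prolyl hydroxylase and is itself an ascorbate-dependent enzyme, was at 7.66, 2.81, 12.8 and 7.03 FPKM, with ratios of -1.14 and -0.77. *Egln3*, which encodes a HIF prolyl hydroxylase that HIF induces as feedback, was at 5.66, 2.79, 5.88 and 2.87 FPKM, with ratios of -0.76 and -0.81. As for *Slc2a1*, the uncentred FPKM of *Egln3* with and without GSK-J4 nearly coincided within each AA condition.

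Smaller ratios in the same direction were found for *Ndrg1* (-0.48), for the collagen lysyl hydroxylase gene *Plod2* (-0.47), for the mTORC1 inhibitor gene *Ddit4* (-0.44), for the HIF prolyl hydroxylase gene *Egln1* (-0.40), for the mitochondrial gene *Higd1a* (-0.40) and for the histone demethylase gene *Kdm3a* (-0.38). *Ddit4* was at 29.4 FPKM in PBS+DMSO and 20.7 in AA+DMSO, and at 280 and 201 in the GSK-J4 libraries, so its ratio of -0.46 there was nearly the same at a level far higher. *Vegfa*, which encodes the angiogenic growth factor, was at 3.79 and 3.59 FPKM in the DMSO pair, with a ratio of -0.01. The ratios of *Gbe1*, *Wsb1*, *Cited2* and *Mxi1* lay between -0.00 and 0.06. Across both lists, 24 genes had a ratio of -0.3 or lower in the DMSO pair, and 19 of these were lower still under GSK-J4. Transcripts of the HIF subunits themselves, looked up after these values were seen, had ratios of -0.24 for *Hif1a* (24.7 and 20.1 FPKM), -0.19 for *Epas1* (9.78 and 8.12) and -0.14 for *Arnt* (17.8 and 15.5). For *Vhl*, whose product recognises hydroxylated HIF, the ratio was 0.03. *Hif1a* went the other way in the GSK-J4 pair, at 0.50.

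**Figure D2:**
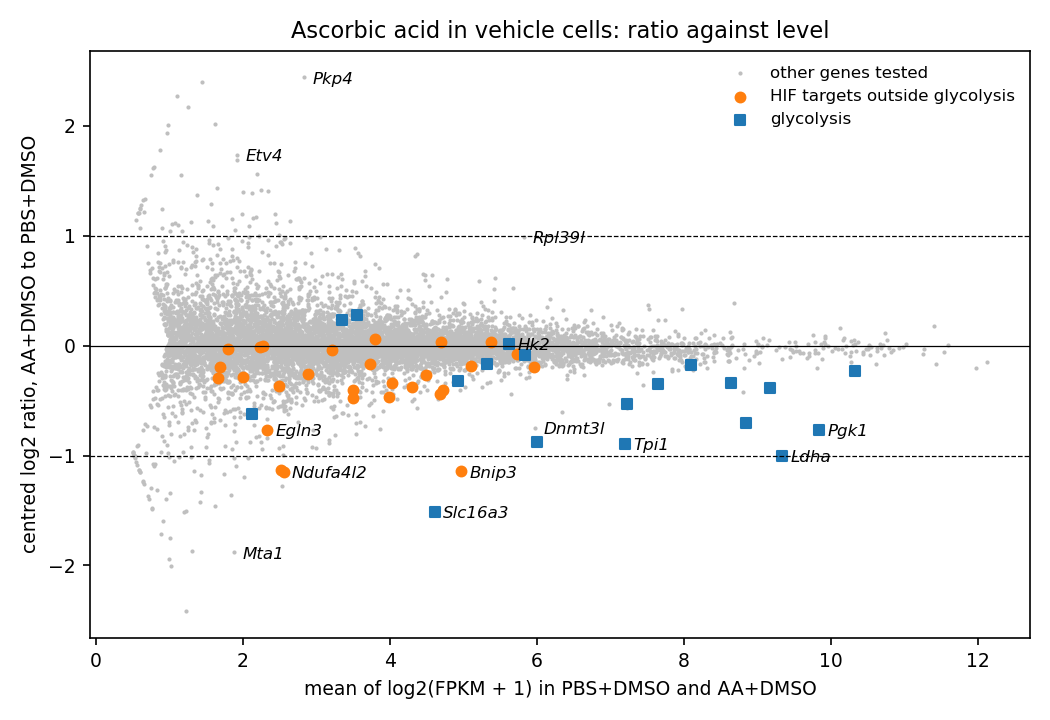
Centred log2 ratio of AA+DMSO to PBS+DMSO against the mean of log2(FPKM + 1) in both libraries for the 8843 genes tested (grey), with 28 HIF targets (orange circles) and 19 glycolysis genes (blue squares); dashed lines mark 2-fold. The grey points spread widely at low levels and narrow at high levels, where the lower glycolysis genes stand below them.

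The other 2-fold differences were mostly found for weakly expressed genes. Of the 109 genes called, 83 (76.1%) were under 5 FPKM in both libraries, against 30.6% of the genes tested. In 78 of the called genes 1 of the libraries was under 1 FPKM, and 14 were listed at 0 in 1 library. The robust SD of the ratios was 0.23 for genes that reached 1 to 5 FPKM, 0.16 from 5 to 20, 0.10 from 20 to 100 and 0.08 above 100. Among the 2915 genes at 20 FPKM or more in either library, 3 were called lower, namely *Slc16a3*, *Bnip3* and *Ldha*, and 0 were called higher. At 1.5-fold, 9 of these genes were lower, and 7 of the 9 belong to the glycolysis or HIF lists, which hold 26 of the 2915 genes (0.892%). The remaining genes were *Dnmt3l* and *Nsfl1c*. The lists were chosen with earlier results of these data known. The limit of 20 FPKM was set after values were seen, so these counts are description only. In the other direction 10 well expressed genes were at least 1.5-fold higher, and none of them is on either list.

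Of the genes that reached 5 FPKM in either library, the 10 with the lowest ratios included *Slc16a3*, *Ndufa4l2*, *Bnip3*, *P4ha1* and *Ldha*. The others were *Mta1*, *Baz2a*, *Mtmr4*, *Vps37c* and *Ext2*. *Mta1*, which encodes a subunit of the NuRD chromatin complex, was at 6.21 FPKM in PBS+DMSO, 0.894 in AA+DMSO, 5.58 in PBS+GSK-J4 and 0.635 in AA+GSK-J4. It was thus low in both libraries with AA, with ratios of -1.88 and -1.99. *Ext2*, which encodes a heparan sulfate polymerase, had ratios of -0.99 and -1.33. *Baz2a*, a gene of the nucleolar silencing complex, was at 8.18 and 2.66 FPKM in the DMSO pair but at 12.2 and 15.1 in the GSK-J4 pair, with ratios of -1.28 and 0.30. *Mtmr4* also changed side, from -1.20 to 0.66, and *Vps37c* had -1.02 and -0.11.

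The 10 genes with the highest ratios were *Pkp4*, *Etl4*, *Dlgap3*, *Etv4*, *Kansl1*, *Gtpbp6*, *Atg2b*, *Gbf1*, *H2-Ke6* and *Hsdl1*, with ratios from 2.44 to 1.39. *Pkp4*, which encodes a plakophilin of cell junctions, was at 2.11 FPKM in PBS+DMSO and 15.4 in AA+DMSO, but at 8.47 in PBS+GSK-J4 and 6.07 in AA+GSK-J4. The direction was not kept for *Pkp4*, *Dlgap3*, *Kansl1* and *Hsdl1*, whose ratios in the GSK-J4 pair were -0.40, -0.18, -0.88 and -0.82. *Etv4*, which encodes an ETS factor downstream of FGF and ERK, was at 1.12 FPKM in PBS+DMSO, 5.83 in AA+DMSO, 2.32 in PBS+GSK-J4 and 6.07 in AA+GSK-J4, and had ratios of 1.74 and 1.11. Other genes of that pathway did not move with it, since *Etv5* had a ratio of -0.07 and *Dusp6* and *Spry4* had -0.06 and -0.00.

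The GSK-J4 pair shows how far the differences recur in other libraries treated with AA. There, 49 of 9180 genes tested were at least 2-fold higher (0.534%) and 53 lower (0.577%), and at 1.5-fold 165 were higher (1.8%) and 213 lower (2.32%). Across the 8660 genes tested in both pairs, the ratios had a Spearman correlation of 0.178, given as a description, since genes are not independent and the depth of the libraries is not known. The correlation was 0.119 for genes that reached 1 to 5 FPKM and 0.293 for those above 100. The ratio had the same sign in both pairs for 4867 genes (56.2%). Of the genes called higher in the DMSO pair and tested in both, 27 of 42 also lay above the median gene under GSK-J4, and of those called lower 28 of 49 lay below it.

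At 2-fold, 2 genes were higher in both pairs and 8 were lower in both. The higher genes were *Etv4* and *Socs6*, which encodes a suppressor of cytokine signalling. *Socs6* was at 1.63 FPKM in PBS+DMSO, 4.29 in AA+DMSO, 0.680 in PBS+GSK-J4 and 3.32 in AA+GSK-J4. Next in order, and under 2-fold in 1 of the pairs or both, came *Etl4* (2.40 and 0.95), *Tle6* (0.92 and 0.99) and *Setd4* (0.91 and 1.12). The lower genes were *Slc16a3*, *Bnip3*, *Ldha* and *Ndufa4l2* from the lists above, and *Mta1*, *Slc43a3*, *Ndel1* and *Paqr3*, which reached at most 6.21 FPKM in any library. *Slc43a3*, which encodes a purine transporter, was at 1.89 and 1.96 FPKM in the libraries without AA and at 9.23e-05 and 0.000148 in those with AA. *Ndel1*, a gene of the dynein pathway, had ratios of -1.46 and -1.13. At 1.5-fold, 34 genes were lower in both pairs, of which 11 are on the glycolysis and HIF lists, and 31 were higher in both, of which 0 are on them. The lists hold 47 of the 8660 genes tested in both pairs (0.543%). As the lists were chosen with earlier results of these data known, these counts are description only. The pairs differed in direction at 1.5-fold for 21 genes that were higher in the DMSO pair and for 11 that were lower in it.

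**Figure D3:**
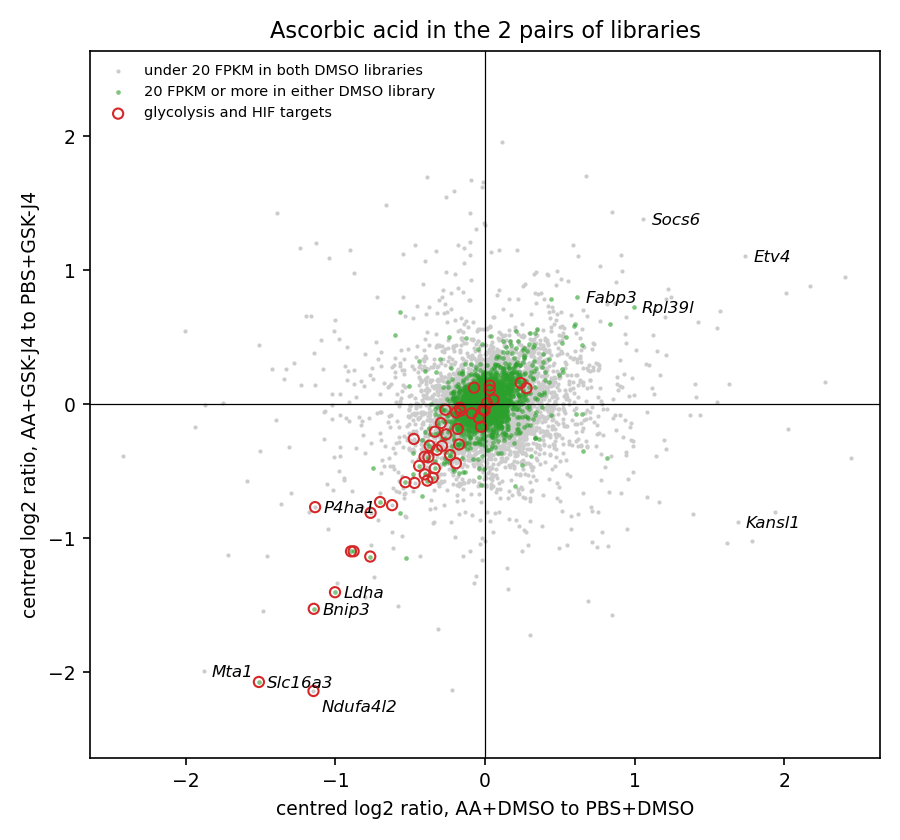
Centred log2 ratio with AA in the GSK-J4 pair against that in the DMSO pair for the 8660 genes tested in both, in green for genes at 20 FPKM or more in either DMSO library and in grey for the others, with glycolysis and HIF target genes circled in red. The circled genes trail from the centre to the lower left, where *Slc16a3*, *Ndufa4l2*, *Bnip3* and *Ldha* lie, and some grey points far to the right, such as *Kansl1*, lie below 0 on the other axis.

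Among genes at 20 FPKM or more, a rule added after the values were seen, 7 were at least 1.5-fold lower in both pairs and 5 were at least 1.5-fold higher in both. All 7 of the lower genes are on the lists (*Slc16a3*, *Bnip3*, *Ldha*, *Tpi1*, *Pfkl*, *Pgk1* and *Aldoa*). None of the higher genes is on these lists, and whether they share a role was not tested. *Rpl39l*, a paralog of the ribosomal protein gene *Rpl39*, was at 39.8 FPKM in PBS+DMSO, 77.5 in AA+DMSO, 22.7 in PBS+GSK-J4 and 37.7 in AA+GSK-J4, with ratios of 0.99 and 0.73. Reads shared with *Rpl39* could be assigned to either gene, so its level is uncertain. *Krt42*, a keratin gene, was at 14.8, 26.3, 16.6 and 25.4 FPKM in the same order. Its uncentred FPKM was thus nearly the same within each AA condition. *Fabp3*, which encodes a fatty acid binding protein, had ratios of 0.62 and 0.80. *Hexa*, for a subunit of lysosomal hexosaminidase, had 0.60 in both pairs, and *Renbp*, for an epimerase of amino sugars, had 0.59 in both.

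The enzymes that use ascorbate as a cofactor were described as gene lists of their own. Of 37 listed names of oxygenases outside the TET and JmjC families, 25 were tested, with a median ratio of -0.07. Of these, 2 were called lower and 0 higher, where 0.633% of all genes tested were called lower. The called genes were *P4ha1* and *Alkbh4*, and *Alkbh4* was at 1.85 FPKM in PBS+DMSO and 0.109 in AA+DMSO, with ratios of -1.31 and -0.32. *Egln2*, the HIF prolyl hydroxylase gene that is not a known HIF target, had a ratio of 0.22 in the DMSO pair and 0.23 in the GSK-J4 pair, opposite to *Egln1* and *Egln3*. *Hif1an*, which encodes the asparaginyl hydroxylase of HIF, had -0.02.

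Of 34 listed names of JmjC histone demethylases and related genes, 20 were tested, with a median of -0.12. Of these, 1 was called higher and 0 lower, against 0.599% of all genes tested called higher. The called gene was *Jmjd4*, at 0.650 FPKM in PBS+DMSO and 3.12 in AA+DMSO, with a ratio of 1.37 in this pair and -0.08 under GSK-J4. *Kdm5a*, which encodes a demethylase of H3K4, had ratios of -0.59 and 0.08, and *Kdm4a*, for H3K9 and H3K36, had -0.46 and 0.36. *Kdm3a* and *Kdm4c*, for H3K9, had ratios of -0.38 and -0.29 in the DMSO pair and -0.39 and -0.26 in the GSK-J4 pair. The H3K27 demethylase genes *Kdm6a* and *Kdm6b* and the genes *Tet1* and *Tet2* were not analysed here. Among 30 Polycomb genes, 23 were tested, with a median of -0.04, and the H3K27 methyltransferase gene *Ezh2* was at 71.4 and 63.8 FPKM. The 1 call in that list was *Phc3*, at 1.57 and 0.181 FPKM, and 0.633% of all genes tested were likewise called lower.

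Within DNA methylation, 22 of 27 listed genes were tested, with a median of -0.07 and no gene called. *Dnmt3l*, which encodes the catalytically inactive partner of the de novo methyltransferases, was at 82.3 FPKM in PBS+DMSO, 47.1 in AA+DMSO, 40.4 in PBS+GSK-J4 and 28.4 in AA+GSK-J4. Its ratio was -0.75 in the DMSO pair, with 1 of 300 neighbours lower, and -0.48 in the GSK-J4 pair, again with 1 of 300 lower. The partner gene *Dnmt3b* had ratios of -0.22 and -0.48, *Dnmt3a* had 0.02 and 0.10, and *Dnmt1*, for the maintenance enzyme, had 0.04 and 0.02. *Tet3* was weakly expressed, at 1.30 and 1.18 FPKM. *Mbd3*, for another NuRD subunit, was at 58.7 and 41.4 FPKM in the DMSO pair, with a ratio of -0.44, but at 26.1 and 32.5 in the GSK-J4 pair, with a ratio of 0.32.

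**Figure D4:**
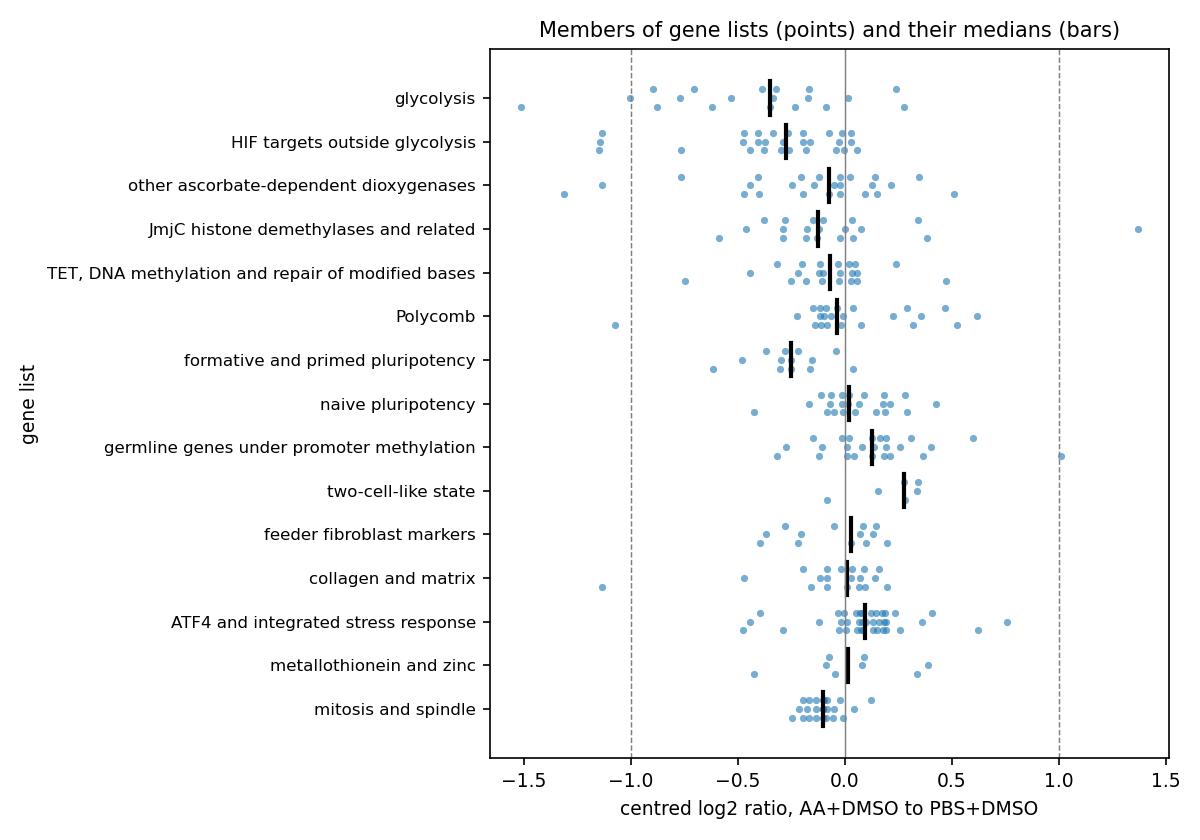
Centred log2 ratio of AA+DMSO to PBS+DMSO for the tested members of 15 gene lists, 1 point per gene, with the median of each list as a black bar and dashed lines at 2-fold; vertical offsets within a list only separate the points. The medians of glycolysis (-0.35), HIF targets (-0.28) and formative pluripotency (-0.25) lie to the left of 0, and that of naive pluripotency (0.02) lies near it.

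Naive pluripotency genes were nearly level between the libraries. Of 23 members tested, 13 lay above and 10 below the median gene, and the median was 0.02. None was called at 1.5-fold, where 2.45% of all genes tested were higher and 1.81% lower. *Pou5f1* had a ratio of -0.07 and *Nanog* of -0.05, and *Prdm14*, which encodes a regulator of naive pluripotency, was at 8.77 and 7.77 FPKM with a ratio of -0.11. *Tcl1*, which encodes an activator of AKT, was at 65.9 FPKM in PBS+DMSO and 70.8 in AA+DMSO, with a ratio of 0.15. The highest members were the nuclear receptor gene *Nr0b1* (0.43 in the DMSO pair and 0.16 in the GSK-J4 pair) and the naive factor gene *Tfcp2l1* (0.29 and 0.45). The lowest was *Tdgf1*, which encodes the Nodal coreceptor Cripto, at 525 FPKM in PBS+DMSO, 378 in AA+DMSO, 304 in PBS+GSK-J4 and 187 in AA+GSK-J4. Its ratios were -0.42 and -0.68, with 3 of 300 neighbours lower in each pair.

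Genes of the formative and primed states, which ESCs take on as they leave naive pluripotency, mostly lay below the median gene in AA+DMSO, by small amounts. Of 13 members tested, 12 lay below the median gene in the DMSO pair and 11 in the GSK-J4 pair, 10 of them in both, and the medians were -0.25 and -0.28. None was called at 2-fold in the DMSO pair, where 0.599% of all genes tested were higher and 0.633% lower. At 1.5-fold, 1 member was lower, against 1.81% of all genes tested. That gene was *Fgf15*, for a growth factor of the FGF family, at 11.97 FPKM in PBS+DMSO, 7.20 in AA+DMSO, 3.15 in PBS+GSK-J4 and 0.948 in AA+GSK-J4, with ratios of -0.61 and -1.07. *Pim2*, for a survival kinase, had ratios of -0.48 and -0.36. The homeobox gene *Otx2* was at 16.6 and 12.2 FPKM, with a ratio of -0.37, and *Zic2* and *Zic5* both had -0.30. *Tead2* (0.04) was the member above the median gene, and *Nodal* stood at -0.04 in the DMSO pair and -0.47 in the GSK-J4 pair.

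Germline genes, listed as being under promoter methylation, mostly lay above the median gene in the DMSO pair. Their methylation was not measured, and the tested members summed to 197 FPKM in PBS+DMSO and 203 in AA+DMSO. Of 25 members tested, 19 lay above the median gene, with a median of 0.13, while in the GSK-J4 pair 12 of 28 did, with a median of -0.04. The difference between the pairs was not tested. At 2-fold, 1 member was called higher, against 0.599% of all genes tested. This was *Hormad2*, a meiotic gene, at 3.04 FPKM in PBS+DMSO, 6.86 in AA+DMSO, 1.95 in PBS+GSK-J4 and 2.86 in AA+GSK-J4, with ratios of 1.01 and 0.41. *Dazl*, which encodes a germ cell RNA-binding protein, was at 4.68, 7.32, 5.56 and 7.50 FPKM. Both libraries with AA thus lay at nearly the same uncentred FPKM, and the ratios of *Dazl* were 0.60 and 0.39. *Ddx4*, another germ cell gene, had -0.32 and -0.23. The list of the two-cell-like state had 6 members tested, with a median of 0.28, and 5 of the 6 lay above the median gene. None of these was called, *Tcstv3* was at 2.84 and 3.50 FPKM, and in the GSK-J4 pair 0 of 11 members tested lay above the median gene.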

How the data were processed

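RNA-Seq was available for 4 conditions with 1 library each, and samples were grouped by their labels. The authors removed duplicate single-end reads, aligned with TopHat2, estimated levels with Cufflinks2 (CummeRbund and Genome Explorer were also run on the Maser platform) and deposited FPKM values in 2 tables, 1 without and 1 with AA. The build is mm10 per the submitters' processing notes. Columns headed as log10 hold linear FPKM. The scaling between libraries is not given in the sources used here, and removal of duplicates can lower the values of abundant transcripts. The tables also hold the authors' log2 fold changes, test statistics, p-values and q-values for GSK-J4 against DMSO, which were not used.

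The tables list 11033 coding sequence groups under 9936 gene names. FPKM was summed per name, and 157 genes with a failed estimate were left out. Genes that reached 1 FPKM in a library of the pair entered its comparison, log2 ratios used a pseudocount of 1 and were centred on their median, and no test was run. The robust SD is the median absolute deviation scaled to an SD. The steps were tested on simulated data. Genes were named by rule: the 10 with the largest ratio in each direction at 5 FPKM or more, the 5 in each direction with the largest smaller ratio over both pairs, genes named by the study, and up to 2 extreme members per direction and any called member of each of 37 lists. Other members of the glycolysis, HIF, chromatin and pluripotency lists, and the genes at 20 FPKM or more, were chosen after their values were seen. The members and lists were chosen with earlier results of these data known. Some lists hold a gene under both an older and a newer name, so the names listed can outnumber the genes. Alternatives were other pseudocounts, filters, scalings and thresholds, 1 value for each coding sequence group, and genes with failed estimates kept. The work was done in Python 3.11.15 with pandas 2.3.3, numpy 2.4.6 and, for figures, matplotlib 3.10.9; scipy was 1.17.1.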

Additional observations from a re-analysis of the deposited data

Results flagged for a closer look

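For 6 genes the ratio of AA to PBS was at least 2-fold in both pairs of libraries but in opposite directions, and these differences between the pairs were not tested. *Gm1673* had a log2 ratio of 1.62 in the DMSO pair and -1.04 in the GSK-J4 pair, and the protocadherin gene *Pcdhgb5* had 1.78 and -1.02. Lower in AA+DMSO and higher in AA+GSK-J4 were *Armcx5* (-1.39 and 1.43), *BC053749* (-1.13 and 1.20), *Micu3*, which encodes a regulator of the mitochondrial calcium uniporter (-1.04 and 1.09), and *Wdsub1* (-1.24 and 1.16). All 6 genes were weakly expressed, with a highest value among the 4 libraries of 3.25 FPKM, for *Micu3* in PBS+DMSO. *Gm1673* and *Pcdhgb5* were both listed at 0 in PBS+DMSO and in AA+GSK-J4, and *Wdsub1* was listed at 0 in AA+DMSO.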

How the results depend on the processing

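The labels carry no replicate numbers, so no fit had a replicate block. A fit of AA and GSK-J4 as additive terms over all 4 libraries, which leaves 1 residual degree of freedom and assumes the same difference with AA in both pairs, was not run. With the main settings, 53 genes were at least 2-fold higher and 56 lower in AA+DMSO, and 2 were higher and 8 lower in both pairs. In that order, the counts were 142, 123, 18 and 18 genes with a pseudocount of 0.1 and 1, 3, 0 and 3 with one of 5. They were 18, 8, 1 and 4 where a gene had to reach 5 FPKM, and 19, 12, 1 and 4 where 1 FPKM was needed in each library of a pair. A threshold of 1.5-fold gave 217, 160, 31 and 34 genes, and 4-fold gave 6, 2, 0 and 0. Counting coding sequence groups instead of genes gave 105, 100 and 7 for the counts that moved. Stricter filters and the pseudocount of 5 remove or shrink weakly expressed genes by construction. Of the recomputed counts, 25 stayed within 1.5 times the main count and 27 did not. The median of glycolysis ranged from -0.40 to -0.32 and that of HIF targets from -0.35 to -0.18 over 10 alternatives, and 363 of the recomputed list medians moved by less than the robust SD of all ratios (0.15), while 4 moved further and 1 moved further with a change of sign. Of the 363, 25 also changed sign, in lists whose main median lay at most 0.0831 from 0. The list that changed sign by more was that of mesoderm, primitive streak and Wnt targets, with 4 members tested, whose median of -0.25 became 0.0362 for genes at 1 FPKM or more in both libraries. *Slc16a3* ranged from -1.57 to -1.30, *Bnip3* from -1.19 to -1.02 and *Rpl39l* from 0.91 to 1.02. Each condition rests on 1 library, so differences between cultures and effects of AA cannot be told apart within a pair. Recurrence in both pairs cannot separate AA from the way the values were deposited, since libraries with and without AA were deposited apart. Depth is unknown. Steps of whole reads in low values gave a relative depth of AA+DMSO of 0.795, but they were met by 43.8% of 128 groups, and 1.59 was met by 40.6%.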

Other observations

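Trophoblast genes had 7 of 9 tested members above the median gene and a median ratio of 0.17, with a median of 0.13 in the GSK-J4 pair. Genes of the ATF4 and integrated stress response, which raise amino acid supply and tRNA charging, had 29 of 38 tested members above the median gene and a median ratio of 0.09, with 35 of 40 above it and a median of 0.13 in the GSK-J4 pair. The highest was *Trib3*, which encodes a pseudokinase of this response, at 4.10 FPKM in PBS+DMSO and 7.34 in AA+DMSO, with ratios of 0.76 and 0.29. *Ddit4*, *Ndrg1* and *Stc2*, which also stand on the HIF list, were among the 9 members below the median gene. The metallothionein genes *Mt1* and *Mt2*, whose products bind zinc and copper, had ratios of 0.34 and 0.39 in the DMSO pair and of 0.27 and 0.32 in the GSK-J4 pair. The related gene *Mt3* had -0.09 and 0.37. Their list of metallothionein and zinc genes had 4 members above and 4 below the median gene in the DMSO pair, with a median of 0.02. In the GSK-J4 pair all 8 lay above it, with a median of 0.21. *Mt2* was at 365 FPKM in PBS+DMSO, 462 in AA+DMSO, 1528 in PBS+GSK-J4 and 1877 in AA+GSK-J4, and 300 of its 300 nearest genes lay below it in the DMSO pair. The antioxidant genes under NRF2 were level in the DMSO pair, with a median of -0.02 over 29 members and none past 1.5-fold. In the GSK-J4 pair, 21 of the 29 lay above the median gene, with a median of 0.10.

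Genes for mitosis had 22 of 24 members below the median gene, with a median of -0.10, and those of endoplasmic reticulum chaperones had 17 of 21 below it, with a median of -0.12. In the GSK-J4 pair both medians were -0.02. In the DMSO pair the median over all genes tested was itself -0.01 from 20 to 100 FPKM and -0.03 above 100. Among the transporters of ascorbate, *Slc23a2*, for the sodium-coupled carrier SVCT2, was at 11.5 FPKM in both DMSO libraries. *Slc2a1* and *Slc2a3*, whose products also carry oxidized ascorbate, were lower as described. Cytosolic ribosomal protein genes had a median of -0.02 over 71 names and oxidative phosphorylation genes one of 0.03 over 74. By chromosome, the medians lay between -0.05 for the X chromosome (339 genes) and 0.03 for chromosome 17 (412 genes).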
